A study of Mus musculus with 6 samples.

Results

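RORγt, a nuclear receptor, directs Th17 cells together with proteins that bind it, and 9 genes for such cofactors, corepressors and regulators are described here at the transcript level. They were Ncoa1, Ncoa2, Ncoa3, Ep300, Crebbp, Ncor1, Nrip1, Ddx5 and Usp4, taken by gene symbol. Earlier results of these data were known when they were chosen. All 9 were among the 16244 genes of the expression table, and all 9 were among the 11908 genes that reached a mean of 10 normalized reads and were tested. The study asked how an amino acid exchange in RORγt, N275D, alters Th17 cells. RNA was sequenced from 3 WT and 3 RORγt N275D libraries of Th17 cells grown in culture.

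Both groups started from naive CD4+ T cells, labelled as coming from spleen, and were cultured for 3 days with anti-CD3 and anti-CD28. The pathogenic Th17 conditions were shared by both groups. The methods build them from TGF-β, IL-6, anti-IL-4 and anti-IFN-γ with IL-23 and IL-1β added, whereas the account of the experiment itself names IL-6, IL-1β and IL-23. The N275D group carried a germline knockin of the exchange on a C57BL/6 background, and the WT mice were C57BL/6 animals purchased from a supplier, so the genotype cannot be told apart from a difference between these sources. The mice in general were young adults of both sexes. The labels give the genotypes as WT and Mut, and neither they nor the methods say whether the knockin cells of these libraries were homozygous, whether the WT mice were littermates, or whether a library came from 1 animal or from a pool. Because separate animals or cultures are not stated either, p-values measure the spread between these libraries, which may be technical.

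A nuclear receptor bound to DNA acts through the proteins that its ligand-binding domain recruits. The p160 coactivators SRC-1 (Ncoa1), SRC-2 (Ncoa2) and SRC-3 (Ncoa3) dock on that domain with LXXLL motifs and bring the histone acetyltransferases p300 (Ep300) and CBP (Crebbp), which open chromatin. The corepressors NCoR1 (Ncor1) and RIP140 (Nrip1) do the opposite by bringing histone deacetylases or CtBP proteins. The RNA helicase Ddx5 is known as a RORγt coactivator at Th17 genes, and the deubiquitinase Usp4 is known to stabilise RORγt protein.

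RefSeq promoter windows, which run from 250 bases before to 50 bases after a transcription start in the GRCm38.p6 build, were matched by symbol for 7 of the 9 genes and gave 11 windows. Ncoa2 and Ncoa3 were not matched. Each window was searched on both strands for AGGTCA, the core element to which ROR receptors bind, and for ACGTG, the core to which HIF-1 binds. The ROR element was present in 2 of the 11 windows and in 16.3% of 32851 windows of that length. The HIF core was present in 3 of the 11 windows, of Ddx5, Ncor1 and Usp4, and in 19.6% of all windows. Shown in full are the 250 bases before a start for Nrip1 and Ncoa1, which changed in opposite directions and whose windows held neither motif, and for Usp4, whose window held the HIF core at -7, -6 and 7. Stretches of 30 bases are shown for the matches of Ddx5 at -81 and -162 and for the match of Ncor1 at -44. Capitals mark the motif, and in Usp4 the overlapping matches on both strands make up the run CACGTG. All sequences run from 5′ to 3′ on the strand of the gene.
Nrip1, chr16:76373828-76374077, minus strand: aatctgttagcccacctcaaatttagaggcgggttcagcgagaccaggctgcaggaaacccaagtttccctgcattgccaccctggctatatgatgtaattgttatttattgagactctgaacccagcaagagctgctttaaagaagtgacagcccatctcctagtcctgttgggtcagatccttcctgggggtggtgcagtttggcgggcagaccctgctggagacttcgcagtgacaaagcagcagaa
Ncoa1, chr12:4477183-4477432, minus strand: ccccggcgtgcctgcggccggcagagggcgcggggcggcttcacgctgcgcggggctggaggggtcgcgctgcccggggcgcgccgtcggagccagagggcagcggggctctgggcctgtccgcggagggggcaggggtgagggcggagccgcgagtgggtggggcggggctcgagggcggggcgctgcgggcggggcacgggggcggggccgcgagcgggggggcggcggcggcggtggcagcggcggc
Usp4, chr9:108347581-108347830, plus strand: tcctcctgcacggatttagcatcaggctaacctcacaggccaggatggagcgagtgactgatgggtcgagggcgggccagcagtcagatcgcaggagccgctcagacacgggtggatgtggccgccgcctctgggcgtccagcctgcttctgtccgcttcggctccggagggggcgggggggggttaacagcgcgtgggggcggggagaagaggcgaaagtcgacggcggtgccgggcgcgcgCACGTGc
Ddx5 at -81, chr11:106788558-106788587, minus strand: ggcggggtgattAGGTCAtagagcggctcc
Ddx5 at -162, chr11:106789052-106789081, minus strand: ggcagggcagccAGGTCAcccagcagcccg
Ncor1 at -44, chr11:62438542-62438571, minus strand: agaaggacatttCACGTttttagtacttaa
In the GENCODE annotation the Nrip1, Ncoa1 and Usp4 stretches lay outside their genes, the Ddx5 match at -81 and the Ncor1 match were intronic, and the Ddx5 match at -162 was in an exon. No binding was measured in these libraries, and a match or its lack describes letters only.

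Libraries held 17659035 to 18510878 reads on genes, and the members were read 648 to 17631 times in a library. The markers of CD4 T cells summed to 17120 to 17711 normalized reads in WT and 15971 to 16154 in N275D, with 1 called higher and 2 lower. The 5 Th17 markers used (Rora, Il17a, Il17f, Il23r and Ccr6) summed to 62784 to 67445 in WT and to 77322 to 78695 in N275D. Most of these reads came from Il17a and Il17f. All 5 were called higher in N275D, and both groups carried the labelled identity. Markers of B cells summed to 150 to 160 normalized reads in WT and 214 to 273 in N275D, with 3 of 5 called higher, and those of CD8 T and NK cells to 120 to 142 and 172 to 179, with 1 called higher. Myeloid markers summed to 43.1 to 56.9 in all 6 libraries, with 3 of 5 below a mean of 10. Of these markers 1 was called higher and 1 lower. None of the 3 gamma delta T cell markers was listed, but Trac of the CD4 T cell markers was not listed either. Their absence therefore says nothing about gamma delta T cells. The part of other cell types in the results below was not tested. In bulk RNA, fewer cells of a type and less RNA per cell cannot be told apart.

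Of the 9 genes, 4 rose and 2 fell in N275D cells by limma at an adjusted p under 0.05, and 3 did not pass. Over all tested genes 50.9% were called, 24.7% higher and 26.1% lower, so 6 of 9 is close to what this comparison gave for genes in general. The genotypes did not overlap in 7 of the 9 genes, against 57.7% of all tested genes. None of the 9 reached a 2-fold change, which 3.59% of tested genes did together with the adjusted p. The median log2 fold change of the 9 was 0.03, beside -0.0026 for all tested genes, and their median absolute change was 0.16, beside 0.19. Under quantile normalization 4 rose and 1 fell, since Ncor1 lost its call. The plot of normalized reads by library shows the 9 genes one by one.

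**Figure D1:**
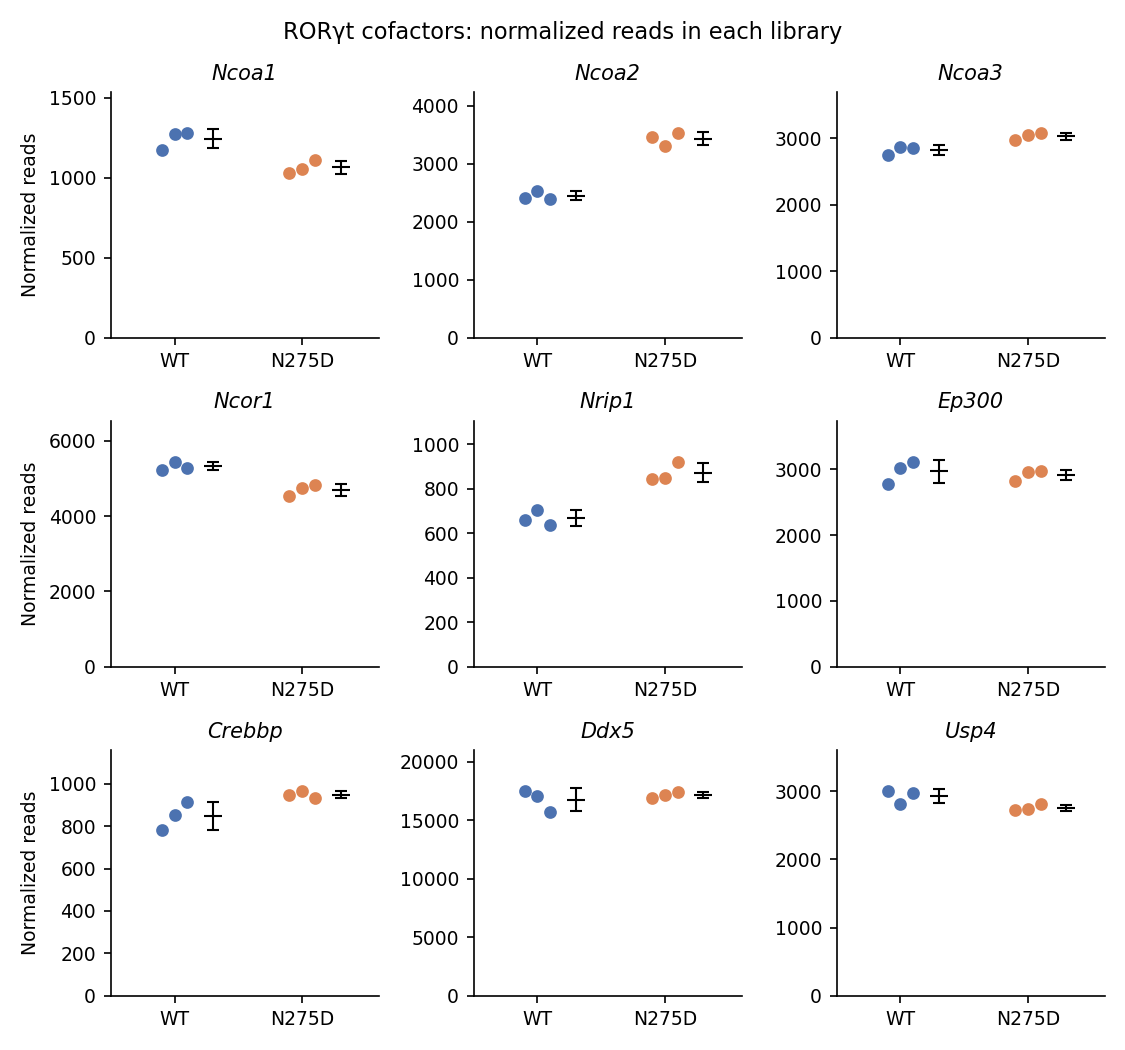
Normalized reads (y axis, from 0, linear) of each gene in the 3 WT (blue) and 3 N275D (orange) libraries, with points for libraries and black bars for the mean ± SD. Ncoa2, Nrip1, Ncoa3 and Crebbp sit higher in every N275D library than in any WT library, Ncoa1, Ncor1 and Usp4 sit lower, and Ep300 and Ddx5 overlap.

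Among the p160 coactivators, Ncoa2 rose, Ncoa1 fell and Ncoa3 rose slightly. Ncoa2, whose product SRC-2 also serves steroid receptors and metabolic gene programs, had 2417, 2538 and 2388 normalized reads in the WT libraries and 3458, 3311 and 3532 in the N275D libraries. The lowest N275D library lay well above the highest WT library. The mean went from 2448 ± 79.5 to 3433 ± 113 (SD, n = 3 each), or 0.49 as log2 fold change (SE 0.04, 95% interval 0.40 to 0.58), an increase of 40.3% with an adjusted p of 8.93e-08 by limma. This was the largest absolute change among the 9, and 86.4% of all tested genes changed by less. The increase passed the test under every one of the 17 alternatives in processing, with a log2 fold change of 0.47 to 0.55.

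Ncoa1, whose product SRC-1 is the p160 member best known to bind RORγt, had 1176, 1275 and 1281 normalized reads in WT and 1027, 1057 and 1111 in N275D. No N275D library reached the lowest WT library. The mean fell by 14.3%, from 1244 ± 59.0 to 1065 ± 42.4 (SD, n = 3 each), or -0.22 as log2 fold change (SE 0.05, adjusted p = 0.00182 by limma). All 17 alternatives kept this call as well. Ncoa3, the SRC-3 gene, had 2745, 2877 and 2854 normalized reads in WT and 2973, 3044 and 3081 in N275D. These did not overlap, and the log2 fold change was 0.10 (95% interval 0.02 to 0.18), with an adjusted p of 0.0369 by limma. The Ncoa3 call was lost in 7 of 17 alternatives, including limma without WT replicate 1 (adjusted p = 0.141), N275D replicate 1 (0.0564), N275D replicate 2 (0.112) or N275D replicate 3 (0.127), and with the replicate number as a block (0.0779).

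Ratios between the p160 transcripts within a library do not move with scaling by 1 factor per library. Quantile normalization is not such a scaling, and the ratios were not computed under it. The Ncoa1 to Ncoa2 ratio of normalized reads was 0.486, 0.502 and 0.536 in WT and 0.297, 0.319 and 0.315 in N275D. The groups were far apart relative to their spread, with means of 0.508 ± 0.0255 and 0.310 ± 0.0118 (SD, n = 3 each). The Ncoa2 to Ncoa3 ratio went from 0.866 ± 0.0259 to 1.13 ± 0.0396 and the Ncoa1 to Ncoa3 ratio from 0.440 ± 0.0106 to 0.351 ± 0.0082, both without overlap. The 3 genes together summed to 6517 ± 176 normalized reads in WT and 7531 ± 168 in N275D, so the p160 pool was larger in every N275D library and Ncoa2 carried most of the difference. With reads divided by exon length, Ncoa2 made up 23.7% ± 0.635 of the pool in WT and 30.2% ± 0.728 in N275D (SD, n = 3 each). Ncoa1 went from 22.0% ± 0.532 to 17.1% ± 0.342 and Ncoa3 from 54.3% ± 0.280 to 52.8% ± 0.636. On this scale Ncoa3 held the largest share in every library, and the Ncoa1 and Ncoa2 shares, close in WT, stood apart in N275D. With the length of the longest transcript in place of the exon union the Ncoa2 share went from 35.5% to 43.4%, above that of Ncoa3 in each N275D library, and the Ncoa1 share lay below its WT mean of 20.1% in every N275D library.

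**Figure D2:**
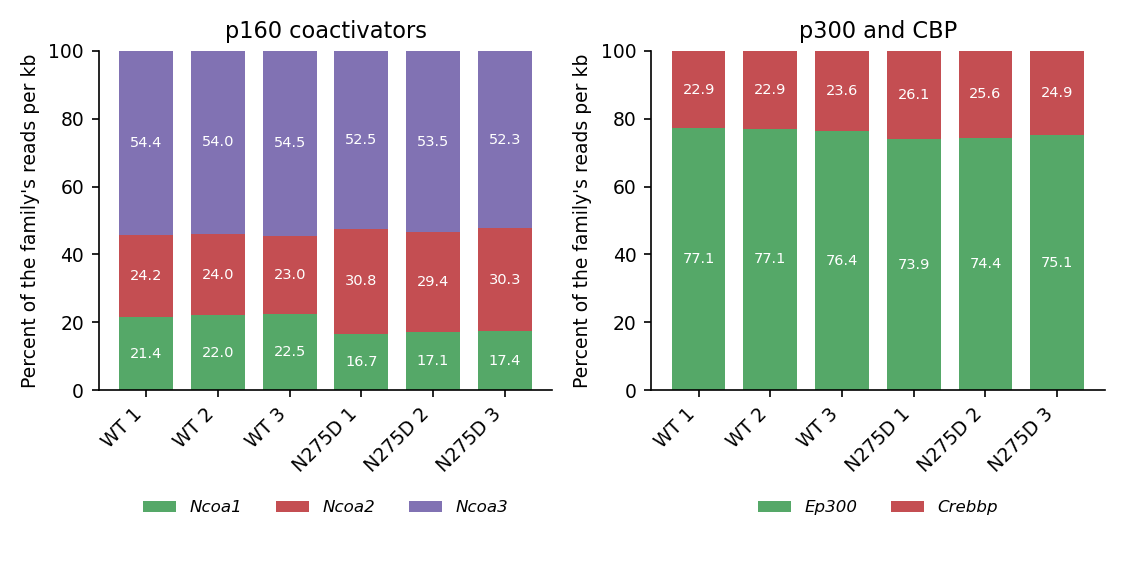
Percent of the normalized reads per kilobase of exon (y axis) held by each p160 gene (left) and by Ep300 and Crebbp (right), with 1 stacked bar per library. The Ncoa2 share is 23.0 to 24.2% in the WT bars and 29.4 to 30.8% in the N275D bars, and the Crebbp share is 22.9 to 23.6% and 24.9 to 26.1%.

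The acetyltransferase genes differed from each other. Crebbp, which encodes CBP, had 780, 854 and 913 normalized reads in WT and 946, 966 and 934 in N275D. The WT libraries were spread over a wider range than the N275D libraries, and the highest of them lay just under the lowest N275D library. The log2 fold change was 0.16 (SE 0.06, 95% interval 0.04 to 0.29), with an adjusted p of 0.0269 by limma. This call was near the threshold and was lost when some single libraries were left out. Limma without WT replicate 1 gave a log2 fold change of 0.10 and an adjusted p of 0.154. Leaving out N275D replicate 1, 2 or 3 gave adjusted p values of 0.0679, 0.0948 and 0.0542. The log2 fold changes there were 0.16, 0.15 and 0.17, near that of the full fit. By limma the call held without WT replicate 2 (0.17, adjusted p = 0.0441) or WT replicate 3 (0.22, adjusted p = 0.000852).

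Ep300, the gene of the close homologue p300, had 2777, 3027 and 3114 normalized reads in WT and 2827, 2957 and 2972 in N275D. All N275D libraries lay within the WT range. The log2 fold change was -0.03 with a 95% interval of -0.12 to 0.07 and an adjusted p of 0.673 by limma, and its sign turned in 3 alternatives, without WT replicate 3 among them (0.0093). The Ep300 to Crebbp ratio was 3.56, 3.54 and 3.41 in WT and 2.99, 3.06 and 3.18 in N275D, without overlap. Per kilobase of exon, Crebbp held 23.1% ± 0.412 of the sum of both in WT and 25.5% ± 0.600 in N275D (SD, n = 3 each).

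The corepressor genes went opposite ways, with Nrip1 higher and Ncor1 lower in N275D cells. Nrip1, which encodes the CtBP-binding corepressor RIP140 and had the fewest reads of the 9, was at 661, 706 and 637 normalized reads in WT and 846, 849 and 920 in N275D. Every N275D library exceeded every WT library. The mean rose by 30.5%, from 668 ± 35.3 to 872 ± 42.3 (SD, n = 3 each), or 0.38 as log2 fold change (SE 0.06, 95% interval 0.26 to 0.51, adjusted p = 4.27e-05 by limma). All 17 alternatives kept the call, with log2 fold changes of 0.34 to 0.42.

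Ncor1, whose product NCoR1 holds the deacetylase Hdac3 in a complex, had 5229, 5438 and 5288 normalized reads in WT and 4524, 4742 and 4813 in N275D. The genotypes were apart in all libraries. Its mean fell by 11.8%, from 5319 ± 108 to 4693 ± 151 (SD, n = 3 each), or -0.18 as log2 fold change (SE 0.04, adjusted p = 0.000779 by limma). Quantile normalization reduced this to -0.08 with an adjusted p of 0.0889, the only one of 17 alternatives that lost the call. Ncor1 over the p160 sum was 0.825, 0.813 and 0.811 in WT and 0.607, 0.640 and 0.623 in N275D. This ratio could not overlap, because Ncor1 was lower and the p160 sum higher in every N275D library. It adds no separate result, and it leaves out Nrip1, the corepressor gene that rose.

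Ddx5 was by far the most abundant of the 9, with 17502, 17110 and 15666 normalized reads in WT and 16880, 17136 and 17412 in N275D. The genotypes overlapped, and WT replicate 3 was the lowest library. The log2 fold change was 0.03 (95% interval -0.05 to 0.12, adjusted p = 0.493 by limma), and without WT replicate 3 it was -0.0137. The interval reached no further than a change of -3.36% to 8.50%. Usp4 had 3007, 2820 and 2971 normalized reads in WT and 2733, 2735 and 2810 in N275D. These libraries did not overlap, but the gap was only from 2820 to 2810. The log2 fold change was -0.09 (95% interval -0.17 to -0.0031) and the adjusted p by limma was 0.0783, short of the threshold. Without WT replicate 2 the log2 fold change was -0.12 and the adjusted p 0.0392, and library weights gave 0.0458.

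**Figure D3:**
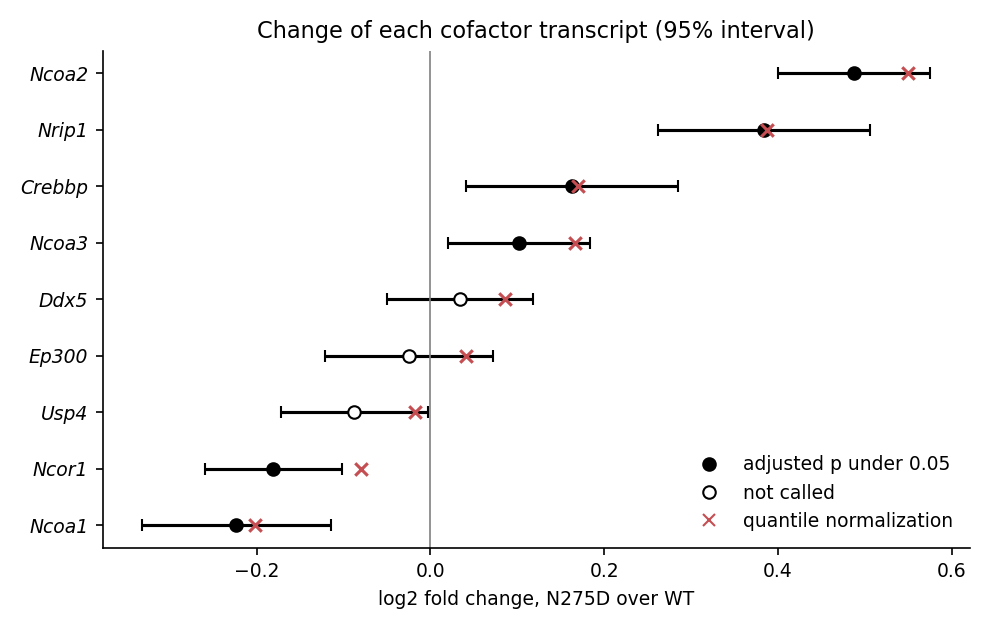
Log2 fold change of N275D over WT (x axis) for each gene, with 95% intervals from limma, filled points for an adjusted p under 0.05 and red crosses for the value after quantile normalization. Intervals of Ncoa2 and Nrip1 lie farthest above 0, those of Ncor1 and Ncoa1 lie below 0, and the quantile value of Ncor1 (-0.08) falls outside its interval.

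Levels of different genes were compared per kilobase of exon, with lengths from the GENCODE annotation. In WT, Ddx5 stood at 2902 ± 167 normalized reads per kilobase, above 98.1% of tested genes with a length. Next among the 9 came Ncor1 at 415 ± 8.40, Ncoa3 at 358 ± 8.91 and Usp4 at 340 ± 11.5. Ncoa3 and Usp4 overlapped between libraries and had no clear order on this scale. Per kilobase of the longest transcript the order differed. There Usp4 stood at 801 ± 27.0 in WT, above Ncor1 at 589 ± 11.9 and Ncoa3 at 375 ± 9.34. Per kilobase of exon the rest were as follows. Ep300 at 208 ± 12.3, Ncoa2 at 156 ± 5.08 and Ncoa1 at 145 ± 6.88 followed, each without overlap with the next. Crebbp at 62.7 ± 4.90 and Nrip1 at 58.3 ± 3.08 were the lowest and overlapped (SD, n = 3 throughout). The range from Nrip1 to Ddx5 was 49.8-fold, far wider than any change between genotypes.

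In N275D the order differed at 3 places. Ncoa2 stood at 219.5 ± 7.20 normalized reads per kilobase and Ep300 at 204 ± 5.58, so that each N275D library held more Ncoa2 than Ep300, the reverse of each WT library. Ncoa3 at 384 ± 6.96 exceeded Ncor1 at 366 ± 11.8, and Nrip1 at 76.1 ± 3.70 exceeded Crebbp at 70.1 ± 1.19 (SD, n = 3 each). Per kilobase of the longest transcript the means of Ncoa2 and Ep300 were 300 ± 9.73 and 311 ± 18.3 in WT. In N275D they were 420 ± 13.8 and 305 ± 8.32. The means thus switched again, but both genes overlapped between the WT libraries. WT replicate 1 held more Ncoa2 (296) than Ep300 (290), so a clear order in WT depended on the length used. On that scale Ncor1 stayed above Ncoa3, and Nrip1 stayed above Crebbp, in the means of both genotypes, so those orders depended on the length used.

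**Figure D4:**
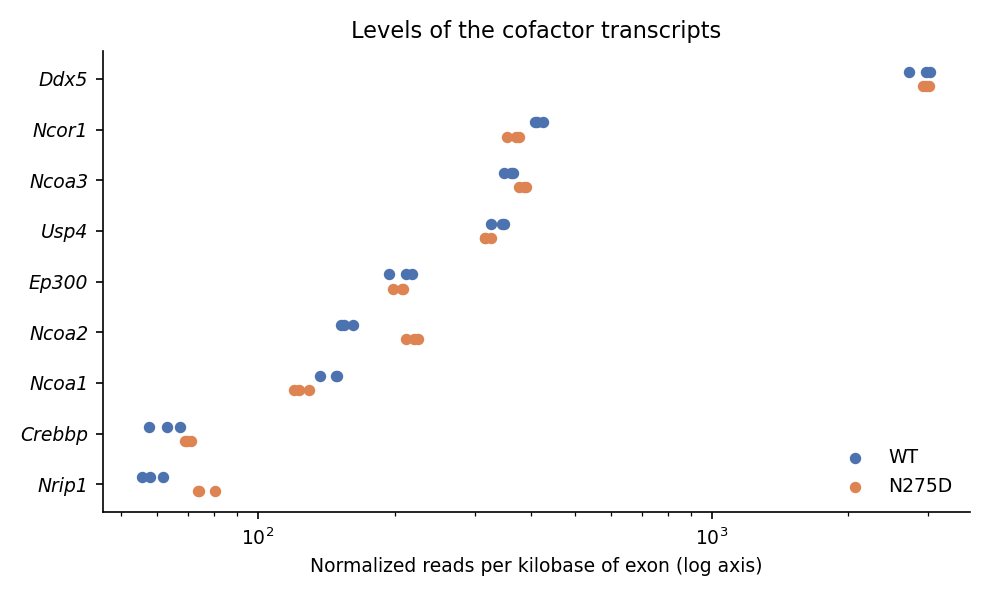
Normalized reads per kilobase of exon (x axis, log scale) of the 9 genes, with 1 point per library, WT in blue and N275D in orange. Ddx5 lies between 2713 and 3031, the other genes lie between 55.6 and 424, and Ncoa2 passes Ep300 in the N275D libraries.

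The genes whose pattern over the 6 libraries was most like that of Ncoa2, by Euclidean distance between centred log2 values, were Snx14 at 0.0445, Irf9 at 0.0608 and Samd8 at 0.0618. Their log2 fold changes were 0.50, 0.53 and 0.48. Snx14 encodes a sorting nexin, Irf9 the DNA-binding partner of STAT proteins in interferon signaling, and Samd8 an enzyme of sphingolipid metabolism. These values come from the contrast that singled out Ncoa2 and are a description.

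Further cofactor genes were read from the same fit. In 8 lists of 81 tested genes, 15 rose and 28 fell, 53.1% in all. Of all tested genes 50.9% were called, 24.7% higher and 26.1% lower. Among genes with a mean of at least 100 normalized reads, 44.9% of the calls were higher. Whether the split of the lists differs from that of genes read as often was not tested. Among 17 other nuclear receptor coactivators 4 rose and 6 fell. The largest changes in that list were decreases, of Ppargc1b (-0.49, adjusted p = 0.00187 by limma) and Pprc1 (-0.31), both of the PGC-1 family, of the arginine methyltransferase gene Prmt1 (-0.27) and of the acetyltransferase gene Kat2a (-0.26), all on the log2 scale. Under quantile normalization 2 of that list rose and 5 fell. Mediator, which links transcription factors to RNA polymerase, had 1 of 11 subunits higher and 7 lower, with log2 fold changes of -0.33 for Med23, -0.30 for Med14, -0.27 for Med16 and -0.27 for Med17. Its median log2 fold change was -0.15, and under quantile normalization it was -0.09, with 1 subunit higher and 5 lower. Of 11 SWI/SNF remodeling subunits 1 rose and 4 fell (1 and 3 under quantile normalization). The alternative ATPases of that complex moved oppositely, Smarca2 by 0.35 and Smarca4 by -0.29, while the core subunit genes Smarcc1 (-0.32) and Actl6a (-0.23) fell.

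Of 5 other subunits of the NCoR complex to which Ncor1 belongs 1 rose and none fell. Tbl1xr1, an exchange factor of the complex, rose by 0.17 on the log2 scale (adjusted p = 0.0258 by limma). That call was lost without WT replicate 3 (0.09 on the log2 scale, adjusted p = 0.0731 by limma), N275D replicate 2 (adjusted p = 0.0771) or N275D replicate 3 (adjusted p = 0.0872), and without a trend in the prior (0.114). The catalytic subunit gene Hdac3 stood at 1639 ± 11.5 and 1644 ± 11.4 normalized reads, with a log2 fold change of 0.0048 and a 95% interval of -0.08 to 0.09.

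Among 19 other corepressor genes 6 rose and 6 fell, and under quantile normalization 8 rose and 4 fell. Ctbp2, a corepressor that RIP140 recruits, had 95.9, 105 and 89.4 normalized reads in WT and 350, 310 and 357 in N275D. No other gene of the 8 lists reached 2-fold. Its log2 fold change was 1.80 (SE 0.09, adjusted p = 2.35e-10 by limma), and it held at 1.70 to 1.86 in all 17 alternatives. Its homologue Ctbp1 had many more reads than Ctbp2 in both genotypes, at 3524 ± 71.0 in WT and 3245 ± 54.2 in N275D (mean ± SD). Ctbp1 fell by 0.12 on the log2 scale (adjusted p = 0.0139 by limma) and was named after its value was seen. The Ctbp1 call was lost under quantile normalization (adjusted p = 0.184), without WT replicate 1 (0.0574) and without N275D replicate 2 (0.0759). Bcor, the BCL6 corepressor gene, fell by 0.54, and the deacetylase gene Hdac9 and the Sin3 subunit gene Sap30 rose by 0.47 and 0.44 on the log2 scale.

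Of 10 genes listed for enzymes that act on RORγt, directly or upstream of it, besides Usp4, 1 rose and 2 fell, and 7 were not called. The kinase gene Map4k3 was higher in N275D, at 138 ± 1.27 against 93.7 ± 4.23 normalized reads (SD over the 3 libraries), a log2 difference of 0.56 with an adjusted p of 0.000251 by limma. Traf5 (-0.27, adjusted p = 0.0109 by limma) and Usp15 (-0.19, adjusted p = 0.011) fell, and under quantile normalization 1 gene of the list rose and 1 fell. The Traf5 call was lost without N275D replicate 2 (adjusted p = 0.0542 by limma) and with DESeq2 (0.0643). The Usp15 call was lost without WT replicate 1 (adjusted p = 0.0699), without N275D replicate 1 (0.0587), under quantile normalization (0.0953) and without a trend in the prior (0.095). Usp15 overlapped between genotypes. The Usp4 to Usp15 ratio overlapped as well, at 1.11 ± 0.123 and 1.19 ± 0.0330. Usp11, the other close paralog of Usp4, rose from 89.9 ± 5.84 to 146 ± 14.0 normalized reads (adjusted p = 7.66e-05 by limma), and the Usp4 to Usp11 ratio went from 32.7 ± 1.59 to 19.1 ± 1.86 (SD, n = 3 each).

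For Ddx5, the paralog Ddx17 had 8485 ± 52.3 normalized reads in WT and 8201 ± 210 in N275D, a log2 fold change of -0.05 with an adjusted p of 0.238 by limma, and the Ddx5 to Ddx17 ratio overlapped between genotypes. Rmrp, the noncoding RNA that binds Ddx5, was not analysed here. Of 6 other p300 and CBP partners 3 fell and none rose. They were Creb1 (-0.42, adjusted p = 1.73e-05 by limma), the transcription factor after which CBP is named, and its coactivators Crtc1 (-0.27) and Crtc2 (-0.22). The Crtc2 call was lost by limma without a trend in the prior (adjusted p = 0.0736).

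RORγt-dependent Th17 genes were called in 9 of 10 cases, 6 higher and 3 lower, beside 50.9% of all tested genes. Under quantile normalization 5 were called higher and 3 lower, since Ltb4r1 lost its call. The list was chosen with earlier results of these data known, so its shares describe these genes and test nothing. Ccl20, the ligand of CCR6, fell by 1.62, and Tmem176a and Tmem176b, a neighboring pair of membrane protein genes, fell by 1.53 and 1.33 on the log2 scale. Il23r, the receptor subunit for IL-23, rose by 0.70. In this list 3 genes reached 2-fold with the adjusted p, beside 3.59% of all tested genes.

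**Figure D5:**
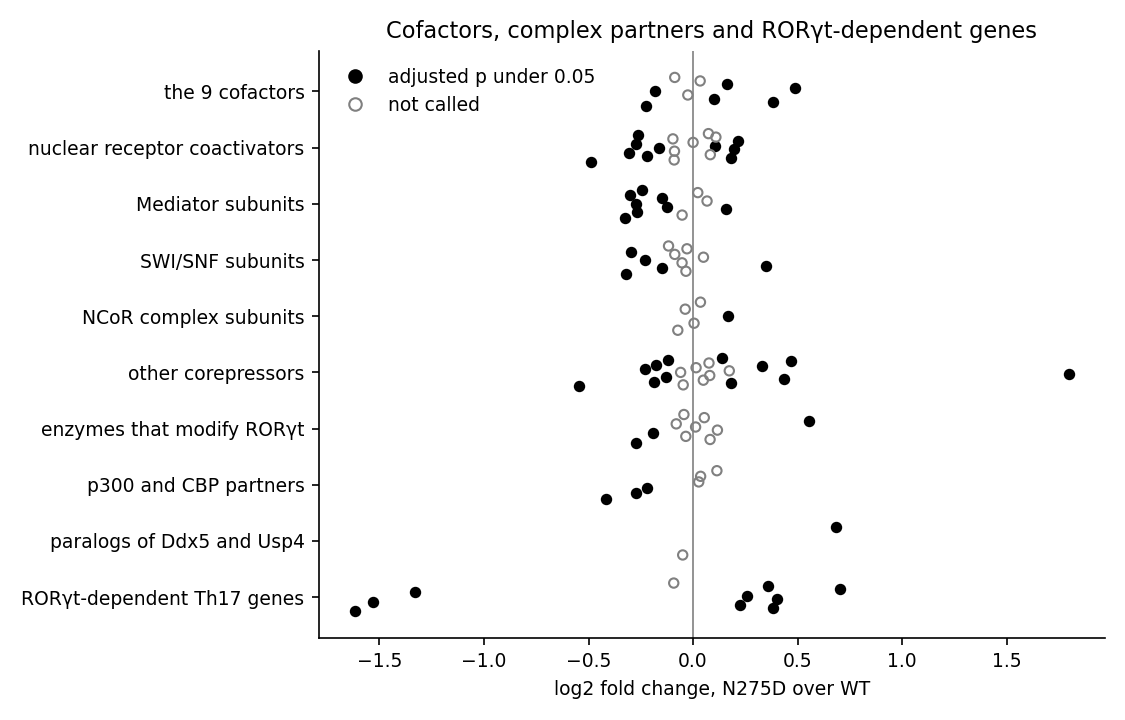
Log2 fold change of N275D over WT (x axis) of the 9 genes and of every tested gene of the lists (rows), with filled points for an adjusted p under 0.05 by limma. Mediator subunits lie mostly below 0, Ctbp2 is the point at 1.80 among other corepressors, and the points at -1.62 to -1.33 are RORγt-dependent Th17 genes.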

How the data were processed

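The 6 RNA-seq libraries were grouped by labelled genotype, 3 WT and 3 RORγt N275D. Per the methods, strand-specific mRNA libraries were sequenced on a DNBSEQ instrument, whereas the labels name poly(A) selection with a NEBNext directional kit. Reads were aligned to mm10 with STAR, counted with featureCounts and compared with DESeq2 by the authors. The deposited values are a signal, gene counts divided by a size factor per library, and 100% of them were whole multiples of 1 read (tolerance 1e-06). The deposited table also holds the authors' averages, log2 fold changes and q-values, which were not used. Each of the 6 library columns was used, and 0 were left out.

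The main test was limma (version 3.58.1, R 4.3.3), fitted to log2(normalized reads + 1) with a mean-variance trend in the prior over 11908 genes whose mean reached 10, and adjusted by Benjamini-Hochberg over all of them. It was used because the values are not raw counts. Fold changes are on that log2 scale, which slightly understates those of low genes. edgeR (4.0.16) and DESeq2 (1.42.0) on the recovered reads were alternatives, with other pseudocounts, filters, scalings, priors, weights, a replicate block and each library left out. An exact permutation test of 3 against 3 libraries cannot go below a two-sided p of 0.1, so none is given. A check of the fit on simulated data required only that large changes be found. It was no test of changes as small as those of the genes described here. Exon lengths came from GENCODE vM21 and matched 97.2% of tested genes, and promoter windows came from RefSeq. Paralogs that share sequence could share reads.

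The 9 genes and the lists were chosen with earlier results of these data known. Named besides the 9 were up to 4 called genes per list by absolute log2 fold change, direct paralogs or partners of members, and the 3 genes nearest in pattern to the member that changed most. A few genes named by this rule are not reported here and were left out of lists and markers. The 9 genes span on mm10, in the GENCODE annotation, chr1:13139105-13374083 (Ncoa2), chr12:4247362-4477182 (Ncoa1), chr2:165992636-166073242 (Ncoa3), chr11:62316426-62458541 (Ncor1), chr16:76287400-76373827 (Nrip1), chr15:81585351-81652077 (Ep300), chr16:4081328-4213997 (Crebbp), chr11:106780355-106789185 (Ddx5) and chr9:108347853-108392545 (Usp4).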

Additional observations from a re-analysis of the deposited data

How the results depend on the processing

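Of the 9 genes, 6 were called with the settings of the report. Other settings called 4 (limma without a trend), 5 (quantile normalization, DESeq2, the replicate block) or 7 (library weights), and leaving out 1 library called 4 to 7. Ncoa2, Nrip1 and Ncoa1 kept their calls throughout. Crebbp and Ncoa3 also lost theirs without a trend (adjusted p = 0.0846 and 0.0845 by limma), and Ncoa3 with DESeq2 (0.0519). The log2 fold change of Ep300 turned to 0.0408 under quantile normalization, 0.0026 with library weights and 0.0093 without WT replicate 3, and that of Ddx5 to -0.0137 without WT replicate 3. With 1 library left out, Ep300 ranged from -0.0733 to 0.0093 and Ddx5 from -0.0137 to 0.0662. The cause was not tested. Under quantile normalization 4 of the 9 rose and 1 fell. The cofactor lists gave 43 calls, and 33 to 47 under the alternatives. Over all genes 6056 were called and 5158 to 6398 with a library left out. Genes at 2-fold numbered 427, but 259 with a pseudocount of 10, 703 with all genes above 0 and 162 with a mean of at least 100. No scaling moved the median of all genes by over 0.1 on the log2 scale. That median cannot show shifts of single genes. Under quantile normalization the log2 fold change went from -0.18 to -0.08 for Ncor1 and from -0.09 to -0.02 for Usp4. For Nrip1 it went only from 0.38 to 0.39. Of 7 paralog ratios 5 did not overlap, and 5 to 6 with a library left out, an alternative chosen after seeing the data. No share over other gene pairs was computed, and 57.7% of single tested genes did not overlap. The ratios between p160 genes also depend on each other. Those of Ncoa1 to Ncoa2 and to Ncoa3 could not overlap, because Ncoa1 was lower and the others higher in every N275D library.

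Libraries with the same replicate number did not deviate together (r = -0.0455, 0.0407 and -0.0828 across genes). Those with different numbers gave r of -0.0537 to 0.0894. No pairing by number was thus seen, but the labels do not say whether libraries were paired. With the replicate block 5727 genes and 5 of the 9 were called, Ncoa3 being the call lost. Depth limited little, since the lowest of the 9, Nrip1, had at least 648 reads in a library.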
